A study of Sus scrofa with 4 samples.

Results

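Enteroendocrine cells are the hormone-secreting cells scattered through the gut epithelium, and 8 of their genes were described here in the ileum of suckling piglets. The genes were *CHGA*, *CHGB*, *SCGN*, *PCSK1*, *GCG*, *CCK*, *SST* and *GHRL*. Their probes were taken by RefSeq transcript accession, without version, through the NCBI gene table. This gave 25 array probes, of 5461 probes that could be named for 2389 genes in the same way. *CHGB* had 15 probes, *PCSK1* had 3, *CCK* had 2, and the other 5 genes had 1 each.

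The RNA came from ileum slices of piglets aged 16 days, suckled by their dams, with Yorkshire × Landrace mothers and Duroc fathers. Low weight gain was represented by 2 samples, each labelled as a pool of 2 piglets, and high weight gain by 2 samples, each labelled as a pool of 3. The samples of a group carry the letters a and b, and nothing in the labels tells whether a and b were different pools or the same pool hybridised again. Each p-value thus rests on the spread between arrays, which may be technical, and no piglet was measured singly. The series title speaks of gain over the first weeks of lactation, while its design text speaks of weight at birth. The sample labels were followed.

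These cells store their products in dense-core granules. The granins, chromogranin A and chromogranin B, are acidic proteins of the granule interior, secretagogin is a calcium-binding protein of endocrine cells, and the convertase encoded by *PCSK1* cuts prohormones into active peptides. The hormone genes mark different endocrine cells. *GCG* encodes proglucagon, the source of the glucagon-like peptides of the distal gut, *CCK* encodes cholecystokinin, which acts on gall bladder and pancreas, *SST* encodes the inhibitory peptide somatostatin, and *GHRL* encodes ghrelin, best known from the stomach. Somatostatin is also made by enteric neurons.

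Each array carried 1 Cy3-labelled sample, and the 4 arrays shared 1 slide and 1 scan. The scanner marked 32835 to 33972 of the 43803 spots other than controls as well above background. Low-gain array a had the widest repeat spots, with a median SD of 0.146 (log2) against 0.0912 to 0.106 on the other 3 arrays. *FABP6*, the gene of the bile acid binding protein of ileal enterocytes, was bright throughout, with normalised log2 signals of 8.65 and 8.72 in low gain and 8.55 and 8.76 in high gain. The gastric genes *GKN1* and *GKN2* and the islet gene *INS* were not well above background on any array. Other genes of stomach and pancreas were not absent, since *GAST*, *CPA1* and *AMY2* were well above background on all 4 arrays. *PNLIP* had some signal above background, but none of its 7 probes met the filter for testing.

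Signals are given as log2 of the scanner's processed signal minus the array's 75th percentile, so that 0 is the 75th percentile, and a log2 change is the low-gain mean minus the high-gain mean. The group comparison asks how the genes of this cell type differ between ileum of low-gain and of high-gain piglets. The granin, secretagogin and convertase genes had higher means in low gain, by 1.40-fold for *CHGA*, 1.55-fold for *CHGB*, 1.46-fold for *SCGN* and 1.41-fold for *PCSK1* on the brightest probe of each. The hormone genes *GCG* (1.03-fold), *CCK* (0.939-fold) and *GHRL* (1.06-fold) had means close together in both groups, and *SST* was at 1.26-fold. None of the 24 member probes tested passed limma's test over all probes (adjusted p 0.137 to 0.999), and 0.240% of the 33265 probes tested passed it. The other member probe, 1 of the 3 of *PCSK1*, was not well above background on any array and was not tested. At an unadjusted p under 0.05, 17 of the 24 member probes were higher in low gain, 14 of them from *CHGB*, against 9.82% of all probes tested.

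**Figure D1:**
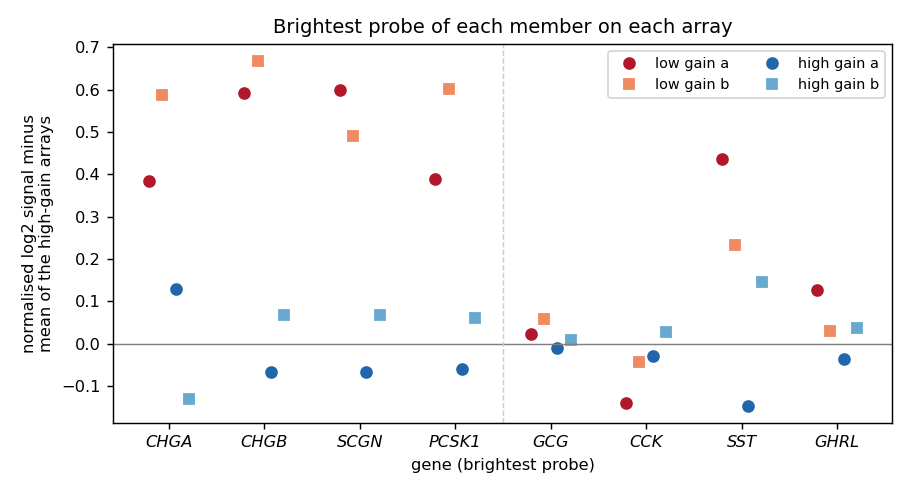
Normalised log2 signal of the brightest probe of each member on each of the 4 arrays, minus the mean of the high-gain arrays (red and orange, low-gain a and b; dark and light blue, high-gain a and b). For *CHGA*, *CHGB*, *SCGN* and *PCSK1*, left of the dashed line, both low-gain points lie above both high-gain points, while *GCG*, *CCK* and *GHRL* points lie close to 0. Both low-gain points also lie above for *SST* and, by a gap of only 0.015, for *GCG*.

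Chromogranin B was read by 15 probes, more than any other member. Its brightest probe gave 0.56 (a) and 0.64 (b) in low gain, and -0.10 (a) and 0.04 (b) in high gain. In processed signal these were 606.9 and 723.5 units in low gain and 451.7 and 483.6 units in high gain. Both low-gain arrays lay above both high-gain arrays, with means of 0.60 ± 0.05 and -0.03 ± 0.10 (SD, n = 2 arrays each). The log2 change was 0.63 ± 0.11 (SE; 95% interval 0.32 to 0.94; limma adjusted p = 0.163).

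The other 14 *CHGB* probes had log2 changes of 0.38 to 0.90 in the same direction. On each of the 15 probes both low-gain arrays lay above both high-gain arrays, which was so for 27.6% of all probes tested. With normexp correction as planned, this held for only 5 of the 15 *CHGB* probes, and for 516 of the 33265 probes tested. The 15 probes read the same transcript in the same 4 samples, so they are repeat readings and not replicates of the condition. Averaged over the 15 probes, *CHGB* was at -1.001 and -0.871 on the low-gain arrays and at -1.60 and -1.52 on the high-gain arrays. That average differed by 0.63 ± 0.11 (SE; 95% interval 0.32 to 0.94), or 1.54-fold, with a limma adjusted p of 0.187.

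Single pairs of arrays were also compared probe by probe. Between a low-gain and a high-gain array the median difference over the 15 *CHGB* probes ran from 0.53 (low-gain a minus high-gain b) to 0.73 (low-gain b minus high-gain a), and each of the 15 was above 0 in each of the 4 such pairs. Within a group the 15 probes also leaned one way. Low-gain array a was below low-gain array b on 14 of them, with a median of -0.15 against -0.01 over all probes tested. High-gain array a was below high-gain array b on 12 of them, with a median of -0.08 against -0.03. By these medians the differences between groups were larger than those within a group, which did not hold for each probe singly.

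**Figure D2:**
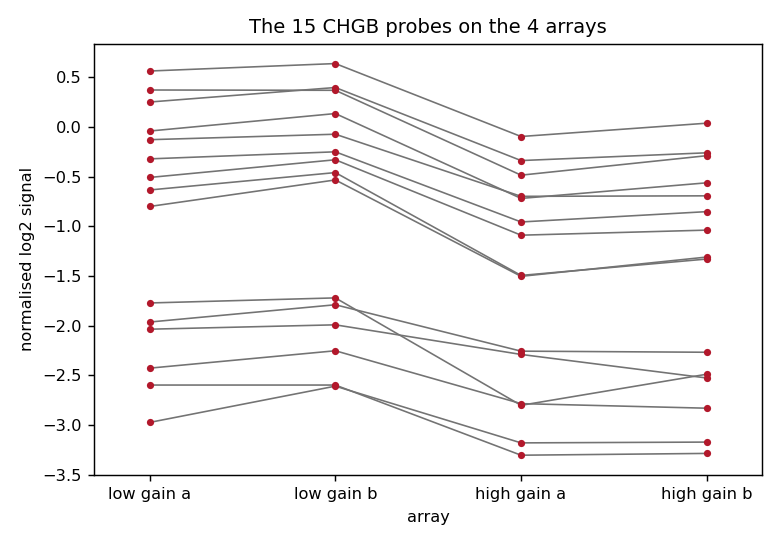
Normalised log2 signal of each of the 15 *CHGB* probes on the 4 arrays, with a line joining the points of 1 probe. Each line steps down from the low-gain to the high-gain arrays, and the 9 upper probes and 6 lower probes form separate bands.

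The *CHGB* probes differed in brightness, which depends on the probe as well as on the transcript. The 9 brighter ones had processed signals of 170.4 to 723.5 units and log2 changes of 0.60 to 0.87. The 6 dimmer ones had signals of 48.3 to 141.1 units and changes of 0.38 to 0.90, and 4 of them were the probes with the smallest changes of the 15. The probe with the largest change, 0.90 ± 0.15 (SE), was one of the dimmer ones, with values of -1.77 and -1.72 in low gain and -2.80 and -2.49 in high gain. The probe with the smallest change, 0.38 ± 0.16, was at -2.97 and -2.61 in low gain and at -3.18 and -3.17 in high gain, so that its low-gain arrays differed by nearly as much as the groups did.

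How many *CHGB* probes passed depended on the prior variance in the fit. When it followed signal intensity, 10 of the 15 passed and no probe of another member did, against 2.26% of all probes passing as higher in low gain. In that fit the 9 brighter probes had SEs of 0.10 to 0.14 (limma adjusted p 0.0237 to 0.0477). Of the 6 dimmer ones, with SEs of 0.15 to 0.20, 1 passed. These calls were lost with fewer arrays. With the intensity trend, 0 of 15 passed without low-gain array a, low-gain array b or high-gain array a, and 1 passed without high-gain array b. With bright local backgrounds replaced before normexp correction, 9 of the 15 passed, against 2.00% of all probes passing as higher.

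Only 38 named genes had at least 10 tested probes. On 2 of these, *CHGB* and *TPM1*, a tropomyosin gene of muscle, both low-gain arrays lay above both high-gain arrays on every probe, a share of 5.26%. *TPM1* had 21 probes with a median log2 change of 0.27, against 0.63 for *CHGB*. Other genes came close, with both low-gain arrays above on 13 of 14 probes of *SMPX* (median 0.65), 29 of 31 of *ITM2B* (0.23) and 14 of 16 of *EPCAM* (0.28). On *LDHB* both low-gain arrays lay below both high-gain arrays on all 12 probes (median -0.21).

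Chromogranin A had 1 probe. It read -2.97 (a) and -2.76 (b) in low gain, and -3.22 (a) and -3.48 (b) in high gain. Both low-gain arrays were the higher, by a gap of 0.26. The log2 change was 0.49 ± 0.15 (SE; 95% interval 0.07 to 0.91; limma adjusted p = 0.235). With the intensity trend the adjusted p was 0.215, and with normexp correction the change was 0.15, or 0.32 with bright backgrounds replaced.

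Secretagogin had 1 probe, at -5.17 and -5.28 in low gain and -5.83 and -5.70 in high gain. The groups did not overlap. The log2 change was 0.54 ± 0.11 (SE; 95% interval 0.23 to 0.86; limma adjusted p = 0.184). Its processed signals were 11.4 and 12.0 units in low gain against 8.5 and 9.0 units in high gain, where the 75th percentile of the 4 arrays lay at 410.8 to 482.8 units. The log2 change of *SCGN* depended on the processing, at 0.04 with normexp correction, 0.10 with bright backgrounds replaced and 0.22 in the log2 values deposited by the authors. The normexp correction added an offset of 50, which is larger than the processed signals of this probe. How the deposited values were normalised is not stated. The part of background treatment in these differences was not tested.

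The convertase gene *PCSK1* had 2 tested probes that differed. The brighter read -2.91 and -2.70 in low gain and -3.36 and -3.24 in high gain, without overlap. Its log2 change was 0.50 ± 0.13 (SE; 95% interval 0.14 to 0.85; limma adjusted p = 0.207). The dimmer probe read -6.01 and -6.38 in low gain, and was above the background flag on neither of these arrays, against -6.03 and -6.14 in high gain. Its log2 change was -0.105 ± 0.169 (SE; 95% interval -0.57 to 0.36; limma adjusted p = 0.755), and the arrays overlapped. This probe was tested only because it passed the background flag on both high-gain arrays, so no direction is read from it. With normexp correction the brighter probe gave 0.17, or 0.34 with bright backgrounds replaced.

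**Figure D3:**
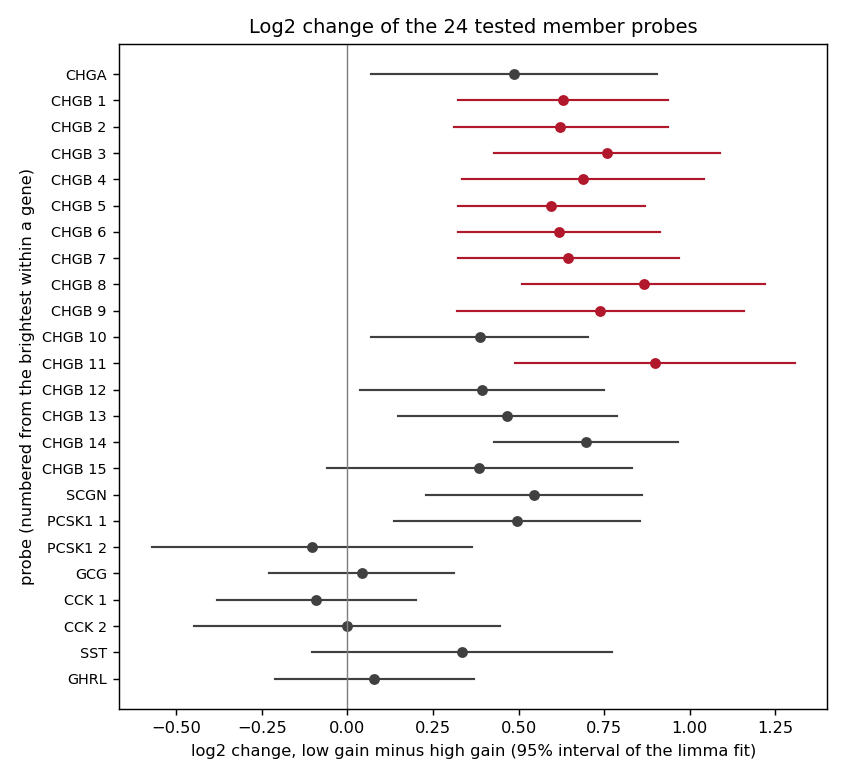
Log2 change, low gain minus high gain, of each of the 24 tested member probes, with its 95% interval from the limma fit. Probes in red passed with the intensity trend, which were 10 of the 15 *CHGB* probes, and the intervals of *GCG*, *CCK*, *SST*, *GHRL*, the dimmer *PCSK1* probe and the dimmest *CHGB* probe include 0.

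Proglucagon transcript had nearly the same signal on the 4 arrays. *GCG* read 2.94 and 2.97 in low gain and 2.91 and 2.93 in high gain, so that both low-gain arrays lay above, by a gap of 0.015. The log2 change was 0.04 ± 0.10 (SE; limma adjusted p = 0.834). The 95% interval ran from -0.23 to 0.31, or from 0.854-fold to 1.24-fold, so that changes within those bounds were not resolved. The sign turned under 3 alternatives, with values of -0.018 to -0.003 (normexp, normexp with bright backgrounds replaced, and the deposited log2 values).

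Cholecystokinin was read by 2 probes with like results. The brighter by mean signal read 1.498 and 1.597 in low gain and 1.61 and 1.67 in high gain, so that both low-gain arrays lay below, by a gap of 0.01. Its log2 change was -0.09 ± 0.11 (SE; 95% interval -0.38 to 0.20; limma adjusted p = 0.659). Both low-gain arrays lay below both high-gain arrays on 26.9% of all probes tested. The other *CCK* probe read 1.48 and 1.66 against 1.41 and 1.73, with overlap.

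Somatostatin had the largest difference in means among the hormone genes. *SST* read 4.45 and 4.24 in low gain and 3.86 and 4.16 in high gain. The low-gain arrays were the higher, but low-gain b and high-gain b were only 0.09 apart. The log2 change was 0.33 ± 0.16 (SE; 95% interval -0.11 to 0.77; limma adjusted p = 0.351). It was 0.19 without high-gain array a and 0.48 without high-gain array b.

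Ghrelin transcript was well above background on the 4 arrays. *GHRL* read -0.96 and -1.06 in low gain and -1.13 and -1.05 in high gain, and the groups overlapped. The log2 change was 0.08 ± 0.11 (SE; 95% interval -0.21 to 0.37; limma adjusted p = 0.705).

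By the brightest probe of each member, both low-gain arrays lay above both high-gain arrays for 6 of the 8 genes, against 32.6% of 2158 named genes with 1 probe each. The 6 include *GCG*, by a gap of only 0.015 and with a sign that turned under some alternatives, and *SST*, by a gap of 0.09. The median log2 change of the 8 was 0.41, against 0.03 over the named genes. It was 0.52 for the granin, secretagogin and convertase genes and 0.06 for the hormone genes. In whole-slice RNA, more endocrine cells and more transcript per cell cannot be told apart.

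Whether the granins differed by more than the hormones was read as a log2 ratio within each array, where the scaling of the array cancels. The ratio of *CHGB* to *GCG* was -2.38 and -2.34 on the low-gain arrays and -3.00 and -2.89 on the high-gain arrays. It was 1.503-fold higher in low gain (log2 difference 0.59). The ratio of *CHGB* to *CCK* was -0.93 and -0.96 in low gain and -1.71 and -1.63 in high gain, a difference of 0.72. Each of *CHGA*, *CHGB*, *SCGN* and *PCSK1* was set against each of the 4 hormone genes, which gave 16 ratios with higher means in low gain throughout. That direction was already fixed by the changes given above. The smallest change of the first 4 genes (*CHGA*, 0.49) exceeded the largest of the hormone genes (*SST*, 0.33). The ratios use the same probe values and are not further evidence. Over these genes the ratios to *GCG* differed by 0.45 to 0.59, those to *CCK* by 0.58 to 0.72 and those to *GHRL* by 0.41 to 0.55, each without overlap. The scaling of the array cancels in a ratio, but the treatment of background and the offset of 50 in the normexp correction do not. With normexp correction the log2 changes were 0.04 for *SCGN*, 0.15 for *CHGA*, 0.17 for *PCSK1* and 0.38 for *CHGB*. They were -0.005 for *GCG*, -0.06 for *CCK*, 0.055 for *GHRL* and 0.26 for *SST*. The ratios were not computed with that correction. The ratios to *SST* differed by less, at 0.30 for *CHGB*, 0.21 for *SCGN*, 0.16 for *PCSK1* and 0.15 for *CHGA*. For the latter pair the groups overlapped, since *CHGA* to *SST* read -7.41 and -7.00 in low gain against -7.08 and -7.63 in high gain, and *PCSK1* to *SST* -7.35 and -6.94 against -7.22 and -7.39. The exact permutation test, two-sided, gave p = 0.333 for each of the 14 ratios without overlap, the smallest that 2 arrays against 2 allow, and p = 0.667 for the other 2 (0.381 and 0.667 after Benjamini-Hochberg adjustment over the 16).

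Other genes of hormone secretion were taken from lists, of which only part could be named on this array. Of 21 other gut peptide genes, 7 had a named probe, and all 7 of these had a higher mean in low gain, 6 without overlap, against 53.4% and 32.6% of named genes. Their median log2 change was 0.27 and none passed. *PYY*, *NTS*, *GIP* and *SCT* were not analysed here. *GAL*, the gene of the neuropeptide galanin, had the largest change, at 1.17 ± 0.11 (SE, limma adjusted p = 0.0835). It read -0.38 and -0.48 in low gain and -1.65 and -1.54 in high gain. *GUCA2A*, which encodes guanylin, a peptide that acts on epithelial fluid secretion, differed by 0.65, *ADM*, the gene of adrenomedullin, by 0.49, and *GUCA2B*, the gene of uroguanylin, by 0.27. *GAL* and *ADM* passed with the intensity trend (adjusted p = 0.00767 and 0.031), as did 5.19% of named genes in that direction. The motilin gene *MLN*, expressed in endocrine cells of the upper gut, differed by 0.26, with overlap.

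Granule and processing genes did not lean one way. Of 24 listed genes, 5 were measured, 3 with a higher and 2 with a lower mean in low gain, with a median of 0.12 and none past the test. *SCG2*, the gene of secretogranin II and thus a further granin, read 0.77 and 0.92 in low gain and 0.46 and 0.61 in high gain, a change of 0.31 ± 0.12 (SE, limma adjusted p = 0.293), and its other probe gave 0.42. *SCG5*, the gene of a chaperone of the convertase encoded by *PCSK2*, differed by -0.18, and its other probe by -0.40. *PCSK2* differed by 0.52 ± 0.34 with overlap, and *RAB3A*, a gene of granule release, by -0.37.

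Receptor genes differed in both directions. Of 22 hormone receptor and related genes, 8 were tested, 4 higher and 4 lower in mean, with changes of -0.52 to 0.46 and a median of -0.01. *DPP4*, the peptidase that inactivates glucagon-like peptides, differed by 0.46 and passed in 1 of 17 alternatives, with the intensity trend (adjusted p = 0.0382). The receptor genes *HTR4* (-0.52), *NPY2R* (-0.50) and *SSTR1* (0.38) did not pass in either fit, and the somatostatin receptor genes *SSTR3* (0.13) and *SSTR5* (-0.14) were near 0. Of 20 nutrient sensing genes, 3 were measured, the taste receptor gene *TAS1R3* (0.19), the glucose transporter gene *SLC5A1* (0.08, and -0.63 to 0.07 on its 3 other probes) and the peptide transporter gene *SLC15A1* (0.06, and -0.08 on its other probe). From the serotonin list *MAOA* (0.23, and -0.19 and 0.08 on its other probes) and from the transcription factor list *PROX1* (-0.09, and -0.20 and -0.15 on its other probes) were measured, and the other genes of those 2 lists were not analysed here.

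**Figure D4:**
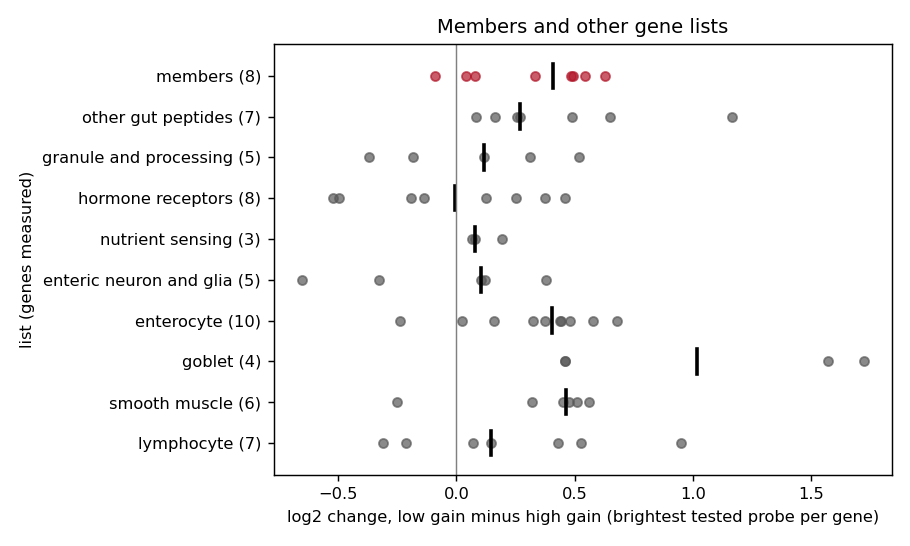
Log2 change, low gain minus high gain, of the brightest tested probe of each gene in the members and in 9 other lists, with a black bar at each list's median. The members' median lies at 0.41, close to that of the enterocyte list (0.41) and the smooth muscle list (0.46), below that of the goblet list (1.02), and above those of the granule (0.12) and neuron (0.11) lists.

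Markers of other cell types differed as well. Of 10 enterocyte genes measured of 20 listed, 9 had a higher mean in low gain, 8 without overlap (53.4% and 32.6% of named genes), with a median log2 change of 0.41. Their summed signal, in units of the array's 75th percentile, was 940.3 and 973.3 in low gain and 811.9 and 878.2 in high gain. That sum weighs most on *FABP6*, the brightest of the 10 (normalised log2 signals of 8.55 to 8.76), whose means were close together in both groups. *ANPEP*, a brush-border peptidase gene, differed by 0.68 (0.14 to 0.55 on its 2 other probes). *CDH1*, the epithelial cadherin gene, differed by 0.58 (0.27 on its other probe). *FABP2*, a fatty acid binding protein gene of enterocytes, differed by 0.48 (0.51 on its other probe). *APOA4*, an apolipoprotein gene of fat absorption, differed by 0.44 (0.26 on its other probe), while *FABP6* differed by 0.02. *APOA1*, the gene of a further apolipoprotein, differed by -0.24 with both low-gain arrays below, and by -0.25 on its other probe. With the intensity trend 4 of the 10 passed, among them *ANPEP* (adjusted p = 0.00664) and *CDH1* (adjusted p = 0.0188). Of 9 goblet genes, 4 were measured and all 4 had a higher mean, with a median of 1.02, and *CLCA1* rose (1.73 ± 0.10, SE, limma adjusted p = 0.0393). Their summed signal was 179.0 and 175.2 in low gain and 86.5 and 93.0 in high gain. *CLCA1* passed in 9 of 17 alternatives, with changes of 1.68 to 1.77 over the 17, and not with normexp as planned, the replicate block, no filter, signal required on 4 arrays or any 1 array left out of the fit without the trend. These *CLCA1* values are of its brightest probe, and its 4 other probes gave log2 changes of 0.71 to 1.95. The size of the change thus varied more between probes than between alternatives. *RETNLB* differed by 1.57, *SPINK4* and *SPDEF* by 0.46 each, and 3 of the 4 goblet genes passed with the intensity trend.

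Of 6 smooth muscle genes measured of 9, 5 had a higher mean, with a median of 0.46 and summed signals of 324.1 and 318.1 in low gain against 248.3 and 245.0 in high gain. *MYLK* differed by 0.56, *DES* by 0.51, *CNN1* by 0.48 and *TPM2* by 0.45, and these 4 passed with the intensity trend. *ACTA2* differed by -0.25 with both low-gain arrays below, and the 2 dimmer probes of *DES* gave -0.34 and -0.02. Of 5 enteric neuron and glia genes measured of 18, 3 had a higher and 2 a lower mean, with a median of 0.11. Their summed signals overlapped, at 4.86 and 5.99 in low gain and 4.71 and 5.41 in high gain. *SOX10* differed by 0.38, *CHAT*, also on the tuft cell list, by -0.33 and *STMN2* by 0.12. Of 7 lymphocyte genes measured of 9, 5 had a higher mean, with a median of 0.15 and summed signals of 16.3 and 14.9 in low gain against 15.3 and 17.7 in high gain. *CD8A* differed by 0.95 (0.03 on its dimmer probe; past the test with the intensity trend) and *CD3E* by 0.53, *CD2* by 0.43 and *CD79A* by -0.31. Of 12 stomach and pancreas genes, 3 were tested, *CPA1* (-0.50), *AMY2* (-0.09) and *GAST* (0.08). The part of these cell types in the differences of the endocrine genes was not tested.

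The genes most like *CHGB* over the 4 arrays were found among 2091 named genes well above background on each array, by the root mean square difference of values centred per gene. *SLPI*, a secreted protease inhibitor gene, was nearest for the brightest *CHGB* probe (0.0154, log2), followed by LOC396700, *DAPL1*, *ST6GALNAC5* and *OTC* (0.0247 to 0.0367), and 83 genes lay within 0.1. For *CHGA* the nearest were *CHRM2*, a muscarinic receptor gene (0.0206), *CD3G*, *F2*, *NEU1* and *KCNA5*, and 17 genes lay within 0.1. The log2 changes of the 5 genes nearest *CHGB* were 0.59 to 0.66, and those of the 5 nearest *CHGA* 0.37 to 0.55. These genes were chosen by the same array values, so changes near those of *CHGB* and *CHGA* were fixed by the choice.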

How the data were processed

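Intensity values of single spots were deposited as written by the scanner software (Agilent Feature Extraction, version 10.7.3.1 in the file headers). The authors' processed log2 values of these arrays were also deposited, and how they were normalised is not stated in the labels. This table correlated at 0.982 to 0.993 with log2 processed signal of the same array, with slopes of 1.00 to 1.01 and column medians of 5.59 to 5.67, and was used as an alternative. Its centring between arrays stays unknown.

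Of 45220 spots on each array, 43803 were not controls. Log2 processed signal was centred on the array's 75th percentile over these spots. Outlier-flagged spots were dropped, repeat spots were averaged, and 48 of 43603 probes with a missing value were dropped. No spot was saturated. A probe was tested if well above background on both arrays of at least 1 group. The test was limma's (version 3.58.1, R 4.3.3; lmFit, eBayes), with Benjamini-Hochberg adjustment over all probes tested and a threshold of 0.05, and checked on simulated data with known changes. Precision is limited by having 2 arrays a group.

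Of 5779 probes with a RefSeq accession, 5461 (12.5% of all probes) matched the Sscrofa11.1 gene table, and the others stayed unnamed. No coordinates are given, since no build is named. The members and lists were chosen with earlier results of these data known. Each member probe is accounted for, and the probe with the highest mean signal stands for a gene. From other lists, genes past the test were named, and otherwise the up to 4 with the largest change and a few more, except 1 that is not reported here.

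Alternatives were median centring, quantile normalisation, normexp (offset 50) on the median signal, no filter, a filter on 4 arrays, an intensity trend in the prior variance, the letter as a replicate block, each array left out, the deposited log2 values and the mean over a gene's probes. Normexp with local backgrounds over 2 times the array's median replaced, and the trend with each array left out, were added after seeing the data.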

Additional observations from a re-analysis of the deposited data

How the results depend on the processing

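The 80 probes passing over the whole array became 163 with median centring, 1250 with the intensity trend, 1099 with bright backgrounds replaced before normexp, 12 with no filter, and 0 with normexp as planned, with signal required on 4 arrays or with the replicate block (limma; 0, 6071 and 4703 at an unadjusted p under 0.05). Leaving out 1 array gave 0 to 37, and with the trend 197 without low-gain array a, 462 without low-gain array b, 130 without high-gain array a and 542 without high-gain array b. Member probes passing numbered 0 in the fit reported and 10 with the trend, 9 with bright backgrounds replaced, and 0 to 1 with 1 array left out, with or without the trend. The letters do not pair the arrays by their deviations (correlation -0.04 over 33265 probes), and with the replicate block 0 members passed. Low-gain array a held 36 spots and high-gain array b 29 spots with a local background over 2 times the median, up to 166072 units, against 0 on the other arrays. With quantile normalisation 67 probes passed and with the deposited log2 values 99.

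*CHGB*, by its brightest probe, ranged from 0.38 (normexp) to 0.70 over 18 alternatives, *CHGA* from 0.15 to 0.62, *SCGN* from 0.04 to 0.61, *PCSK1* from 0.17 to 0.68, *SST* from 0.19 to 0.48, *GHRL* from 0.03 to 0.13 and *CCK* from -0.14 to -0.04, each without a change of sign. *CHGB* passed in 2 of its alternatives and the other 7 genes in none of theirs. *GCG* turned to -0.005 with normexp, -0.003 with bright backgrounds replaced and -0.018 with the deposited values. The cause of these changes was not tested. Low signal limits *SCGN* and the dimmer *PCSK1* probes.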
